A study of Homo sapiens with 6 samples.

Results

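The 10 genes described here belong to the machinery that takes a cell from G1 into S phase and were followed in AN3CA, a human endometrial cancer (EC) cell line, with and without *PAX2* knockdown (KD). They are the D-type cyclins *CCND1*, *CCND2* and *CCND3*, their partner kinases *CDK4* and *CDK6*, the E-type cyclin *CCNE1*, the CDK inhibitors *CDKN1A*, *CDKN1B* and *CDKN2A*, and the retinoblastoma gene *RB1*. They were taken by gene symbol, with no threshold on their values, and all 10 were among the 17471 genes listed. RNA-seq libraries came from 3 samples carrying the empty lentiviral vector (shEV, genotype given as WT) and from 3 samples carrying a 29-mer short hairpin RNA against *PAX2* (shPAX2, genotype given as *PAX2* KD). Both groups went through puromycin selection, and no cloning step is described. The knockdown rests on 1 line and 1 hairpin. Elsewhere the study calls the AN3CA control scrambled. The labels do not say whether the 3 samples of a group were separate cultures, so the p-values measure the spread between these samples, which may be technical.

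A cell commits to division when cyclin D bound to *CDK4* or *CDK6* starts to phosphorylate the *RB1* protein, which until then holds E2F transcription factors inactive, and cyclin E bound to *CDK2* completes the step. Inhibitors of the INK4 family, such as the p16 product of *CDKN2A*, bind *CDK4* and *CDK6*, whereas the CIP/KIP inhibitors p21 (*CDKN1A*) and p27 (*CDKN1B*) bind the cyclin-CDK complexes, above all those of *CDK2*. In endometrial cancer this circuit is best known for *CCNE1* amplification in aggressive tumors. *PAX2* encodes a developmental transcription factor expressed in normal endometrial glands.

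Levels are in TPM, reads scaled by gene length and library total, so they can be compared between genes. Whole reads could be recovered from the values and gave depths of 10730909 to 18221859 reads for the shEV group and 19422615 to 29405787 for the shPAX2 group. Every shPAX2 library was thus deeper than every shEV library, so depth and group were confounded. Differences between groups are on the log2(TPM + 0.5) scale, tested with limma across the 13163 genes that reached 0.5 TPM in 3 or more libraries, with p-values adjusted by Benjamini-Hochberg over those genes. Of all genes tested, 12.2% were higher and 30.5% lower in shPAX2 at an adjusted p under 0.05, and 1.43% were higher and 3.11% lower when at least a 2-fold change was also asked. The median gene lay 0.10 lower on the log2 scale, and after median-of-ratios scaling (median -0.0002) the share of calls that were lower went from 71.4% to 48.5%. *PAX2* itself had 4.03, 3.66 and 2.74 TPM in shEV and 0.916, 0.723 and 1.17 TPM in shPAX2 (log2 fold change -1.47, SE 0.18, adjusted p = 0.000294). The labels call the cells epithelial, but *EPCAM*, *CDH1*, *KRT7*, *KRT8* and *KRT19* were each below 0.4 TPM in every library, *KRT18* ranged from 10.2 to 17.5 TPM and the mesenchymal *VIM* from 3750 to 4410 TPM. The mesenchymal list was mixed: *ZEB1* and *SPARC* were above 25 TPM in every library, *CDH2*, *TWIST1* and *FN1* each stayed below 0.9 TPM, and *SNAI2* fell in shPAX2 (-0.78, adjusted p = 0.0366). Endothelial markers summed to at most 0.0611 TPM and leukocyte markers to at most 2.58 TPM in any library. Fibroblast markers summed to 811 to 858 TPM in the shEV libraries and 362 to 441 TPM in those of shPAX2, nearly all of it from *COL1A2*. Their part in the results was not tested.

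The 10 genes spanned more than 3 orders of magnitude. In shEV the mean level was highest for *CDK4* at 214 TPM ± 8.07 (SD, n = 3), above 96.9% of all listed genes by its mean over the 6 libraries. *CCNE1* (73.9 TPM ± 3.07), *RB1* (64.9 ± 4.5) and *CDK6* (62.0 ± 2.26) followed, then *CDKN2A* (42.6 ± 3.06), *CCND3* (37.5 ± 3.0) and *CDKN1B* (37.4 ± 4.98). *CDKN1A* stood much lower at 6.49 TPM ± 2.59, and *CCND1* (0.303 ± 0.170) and *CCND2* (0.0684 ± 0.0292) were close to nothing. *RB1* and *CDK6* overlapped in their ranges, as did *CDKN2A* with *CCND3* and *CCND3* with *CDKN1B*, while the other neighbours in this order did not. In shPAX2 the order changed below *CDK4*: *CDK6* came second at 79.9 TPM ± 18.1, and *RB1* was sixth at 41.4 TPM ± 2.25, below *CCNE1* (51.7 ± 5.77), *CCND3* (50.6 ± 4.28) and *CDKN2A* (46.6 ± 4.42). The ranges of these last 3 overlapped one another, and that of *RB1* overlapped with *CDKN2A*. *CDKN1B* (31.4 TPM ± 1.33) and *CDKN1A* (2.0 ± 0.0822) remained in seventh and eighth place.

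**Figure D1:**
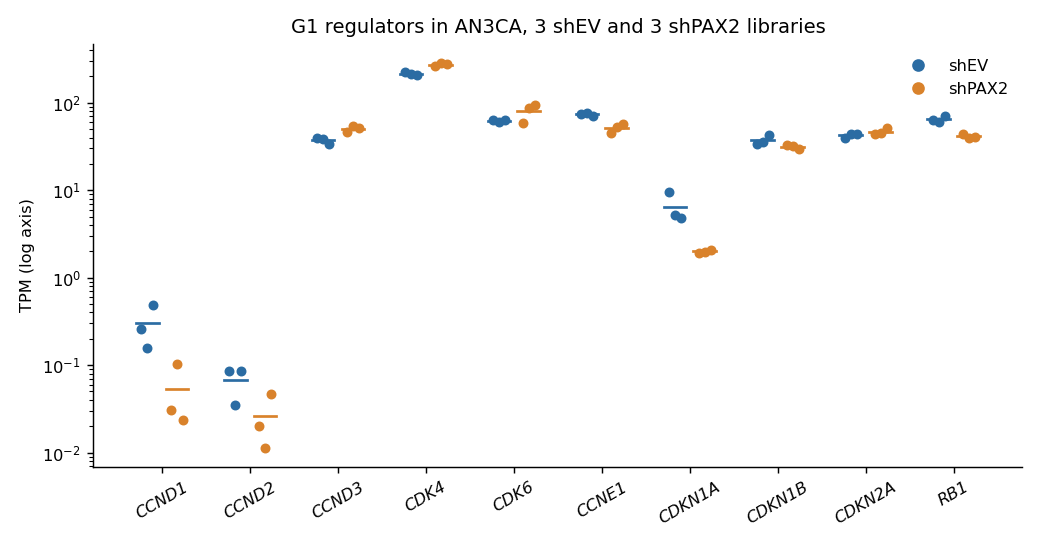
TPM (log axis) of the 10 G1 regulators in each of the 3 shEV (blue) and 3 shPAX2 (orange) libraries. Points are libraries and short lines are group means. CCND1 and CCND2 lie below 0.5 TPM in all 6 libraries, and CDKN1A goes from 6.49 TPM on average in shEV to 2.0 TPM in shPAX2.

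Of the 10 genes, 8 passed the filter on low values, *CCND1* and *CCND2* being too low to be tested. Of these 8, 2 rose in shPAX2 (*CCND3* and *CDK4*), 3 fell (*CCNE1*, *CDKN1A* and *RB1*) and 3 did not pass the test (*CDK6*, *CDKN1B* and *CDKN2A*). In these bulk libraries, fewer cells with a transcript and less of it per cell cannot be told apart. These shares are to be read against the 12.2% and 30.5% of all genes that were called. Only *CDKN1A* among the 8 changed at least 2-fold, against 3.11% of all genes that fell this far. The shEV and shPAX2 values did not overlap for 6 of the 8 genes (75%), beside 54.9% of all genes tested. The median difference of the 8 was -0.06, and that of all genes -0.10. An exact permutation test of 3 against 3 libraries, two-sided, cannot go below p = 0.1, which is the value it gave for each of the 6 genes whose groups did not overlap. For *CDK6* and *CDKN2A* it gave p = 0.4 (exact).

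Among the D-type cyclins, which link growth signals to the cell cycle, nearly all of the transcript level in these AN3CA libraries came from *CCND3*. *CCND1* (chr11:69455924-69469242 on GRCh37, plus strand) was covered by 6, 6 and 19 reads in the shEV libraries and by 2, 6 and 1 in the shPAX2 libraries, or 0.261, 0.158 and 0.491 TPM against 0.0305, 0.104 and 0.0239 TPM. Every shEV value lay above every shPAX2 value. *ORAOV1* overlaps *CCND1* on the opposite strand, and whether the counting kept strand is not given in the sources used here. Whether all of these few reads came from *CCND1* was not tested. Summed over each group, there were 31 reads among 46311878 in shEV and 9 among 75644519 in shPAX2, a rate ratio of 0.178 with an exact 95% interval of 0.0744 to 0.382 that covers counting error only. Fitted without the filter, its difference was -0.52 (SE 0.15, limma adjusted p = 0.0425), which was no longer below 0.05 when shEV replicate 1 (adjusted p = 0.0743) or 3 (0.0602) was left out, or any 1 of the shPAX2 replicates 1, 2 and 3 (0.0997, 0.0692 and 0.114). *CCND2* (chr12:4378937-4414519, plus strand) was covered by 3, 2 and 5 reads in the shEV libraries and by 2, 1 and 3 in the shPAX2 libraries. Its summed rate ratio of 0.367 had an interval from 0.110 to 1.12, so that no difference was detectable at this depth.

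*CCND3* (chr6:41902672-42018095, minus strand) had 39.7, 38.8 and 34.1 TPM in shEV and 46.0, 54.5 and 51.2 TPM in shPAX2. All 3 shPAX2 libraries were above all 3 shEV libraries. The difference was 0.43 (SE 0.08, adjusted p = 0.00342), and the mean in shPAX2 was 135% of that in shEV. *CCND3* supplied between 98.3% and 99.9% of the summed TPM of the 3 D-type cyclins in every library. This sum averaged 37.9 TPM ± 2.84 over the shEV libraries and 50.7 TPM ± 4.31 over those of shPAX2 (SD, n = 3), without overlap. The higher *CCND3* level was shared by the chromosome it lies on: the 631 tested genes of chromosome 6 had a median difference of 0.39, against -0.12 for genes placed elsewhere, and 62.3% of them were called higher. Within chromosome 6, 344 of the 631 genes (54.5%) had a lower value than *CCND3*, and the 20 nearest tested genes ranged from -0.28 to 0.99 with a median of 0.35. With the median shift of each chromosome subtracted in each library, the *CCND3* difference was 0.04 (95% interval -0.16 to 0.24, adjusted p = 0.751). What moved the genes of chromosome 6 was not tested.

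**Figure D2:**
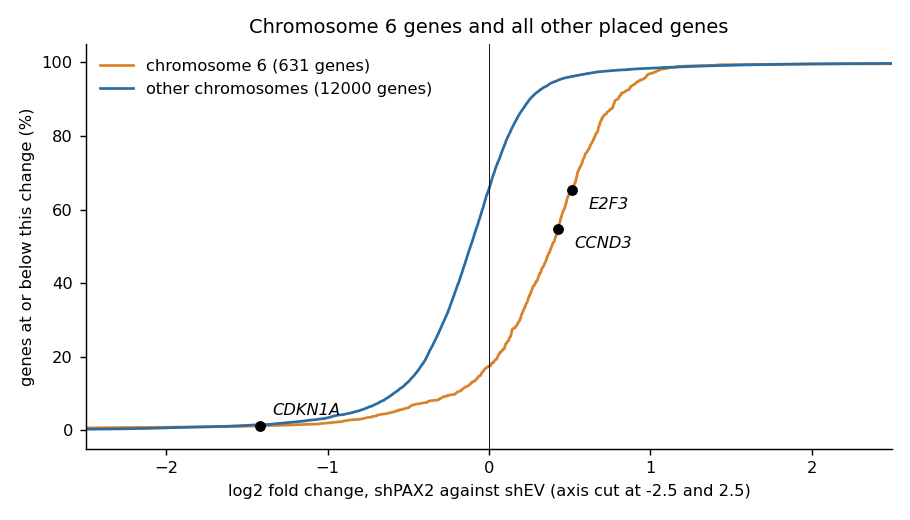
Cumulative share of tested genes (y axis, percent) against the log2 fold change of shPAX2 over shEV (x axis), for the 631 genes of chromosome 6 (orange) and for genes on all other chromosomes (blue). The orange curve lies to the right of the blue one, with medians of 0.39 and -0.12. CCND3 (0.43) and E2F3 (0.51) sit near the middle of the orange curve and CDKN1A (-1.42) at its lower end.

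*CDK4* (chr12:58141510-58149796, minus strand), the most abundant of the 10 transcripts, had 223, 212 and 207 TPM in shEV and 262, 283 and 274 TPM in shPAX2. It was higher in every shPAX2 library, with a difference of 0.35 (SE 0.06, adjusted p = 0.00156). Chromosome 12 as a whole had a median of -0.10, 93.1% of its 670 tested genes lay below *CDK4*, and the *CDK4* difference became 0.46 (adjusted p = 0.000546) once that shift was subtracted. *TSPAN31* and *MARCH9* overlap *CDK4* on the opposite strand. The kit keeps strand, but whether the counting used it is not given in the sources used here. The 250 bases before the RefSeq start of *CDK4* (chr12:57752311-57752560 on GRCh38.p14, minus strand, read 5′ to 3′) are shown because their motif content set this member apart from the other 7 with an entry. Capitals mark the MYC-type E-box CACGTG, found 3 times, and the GC box GGGCGG, found 3 times, on either strand.
CDK4: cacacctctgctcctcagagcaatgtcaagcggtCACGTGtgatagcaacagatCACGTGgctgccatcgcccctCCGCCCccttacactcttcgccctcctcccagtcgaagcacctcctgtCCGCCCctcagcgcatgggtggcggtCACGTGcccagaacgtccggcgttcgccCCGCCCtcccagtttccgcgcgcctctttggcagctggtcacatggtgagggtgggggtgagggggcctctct
CACGTG occurred in 6.34% of the upstream windows of the same length of all 35116 RefSeq promoters, and in 1 of the 12 windows that the table holds for 8 of the 10 genes. A match describes these letters and is not a measured site.

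*CDK6* (chr7:92234235-92465887, minus strand), the second D-cyclin kinase, did not pass the test. It had 62.9, 59.5 and 63.8 TPM in shEV and 59.2, 87.4 and 93.0 TPM in shPAX2. The last 2 shPAX2 libraries were above every shEV library, and shPAX2 replicate 1 was below all of them. The difference was 0.34 (SE 0.17, 95% interval -0.08 to 0.76, adjusted p = 0.167), and it was 0.54 (adjusted p = 0.000348), 0.26 (0.366) and 0.21 (0.368) when shPAX2 replicate 1, 2 or 3 was left out. *CDK4* and *CDK6* together had 276 TPM ± 8.36 in shEV and 353 TPM ± 27.2 in shPAX2. Their sum was 7.30 ± 0.446 times the D-type cyclin sum in shEV and 6.97 ± 0.188 times in shPAX2, with overlapping values. The *CDK4* to *CDK6* ratio was 3.54, 3.56 and 3.24 in shEV and 4.43, 3.24 and 2.95 in shPAX2, so that the kinase balance varied more among the shPAX2 libraries than between the groups. Across genes, shPAX2 replicate 1 also stood apart from shPAX2 replicates 2 and 3, with a chi-square per degree of freedom of 12.5 and 15.3. This value was 3.8 between shPAX2 replicates 2 and 3, and 3.15 to 5.39 among the shEV libraries. Its bearing on *CDK6* was not tested.

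*CCNE1* (chr19:30302898-30315219, plus strand) encodes the cyclin that activates *CDK2* late in G1. It had 75.3, 76.1 and 70.4 TPM in shEV and 45.5, 52.8 and 56.8 TPM in shPAX2. Every shPAX2 library was below every shEV library, and the difference was -0.52 (SE 0.08, adjusted p = 0.00138). Only 10.4% of the 948 tested genes of chromosome 19 were lower. The second E-type cyclin, *CCNE2*, went the other way, with 25.6, 21.5 and 26.3 TPM in shEV and 29.7, 31.2 and 35.3 TPM in shPAX2 (0.38, SE 0.09, adjusted p = 0.0102). *CCNE1* made up 74.7%, 78.0% and 72.8% of the E-type cyclin sum in shEV and 60.5%, 62.9% and 61.7% in shPAX2. The sum itself averaged 98.4 TPM ± 2.17 over the shEV libraries and 83.8 TPM ± 8.47 over those of shPAX2, without overlap between the groups. Their kinase *CDK2* had 59.9, 55.7 and 62.7 TPM in shEV and 69.6, 69.6 and 63.0 TPM in shPAX2 (0.18, adjusted p = 0.0591). *CDK2* was called higher in 6 of 19 alternative fits, among them median-of-ratios scaling (0.29, adjusted p = 0.00705) and that without shPAX2 replicate 3 (0.23, adjusted p = 0.0390). The *CCNE1* sequence before the RefSeq start (chr19:29811741-29811990 on GRCh38.p14, plus strand) is shown as that of the E-type cyclin that fell. Capitals again mark GC boxes.
CCNE1: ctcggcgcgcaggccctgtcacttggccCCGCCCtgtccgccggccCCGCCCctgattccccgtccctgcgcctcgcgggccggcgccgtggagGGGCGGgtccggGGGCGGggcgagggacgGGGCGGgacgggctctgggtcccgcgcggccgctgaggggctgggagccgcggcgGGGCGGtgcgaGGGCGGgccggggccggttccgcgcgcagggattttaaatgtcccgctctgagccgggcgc
It held 7 GC boxes and was 81.2% G or C, beside a median of 58% over all promoters. A GC box was present in 42.6% of all promoters and in 8 of the 12 windows of the G1 genes. The E2F words TTTCCCGC, TTTCGCGC, TTTGCCGC and TTTGGCGC, present in 2.79% of all promoters, and TATAAA, present in 10.7%, were in none of the 12. The *RB1* window lies before a start inside the gene, so the first *RB1* start is not among them. Only exact words in the 250 bases before each start were searched. A missing match therefore does not show that a promoter lacks E2F sites.

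The inhibitor *CDKN1A* (chr6:36644237-36655114, plus strand), which encodes p21, showed the largest change of the 8 tested genes. It had 9.48, 5.15 and 4.85 TPM in shEV and 1.94, 1.98 and 2.09 TPM in shPAX2. The 3 shPAX2 libraries were close together and below all shEV libraries, whereas shEV replicate 1 stood well above the other shEV libraries. The difference was -1.42 (SE 0.23, adjusted p = 0.00182), and the mean in shPAX2 was 30.9% of that in shEV. Between 49 and 122 reads per library lay behind these values. Leaving out each library in turn gave differences from -1.58 to -1.13, each past the threshold. Most genes around *CDKN1A* were higher in shPAX2. Only 7 of the 631 tested chromosome 6 genes (1.11%) were lower, all 20 nearest tested genes lay above *CDKN1A*, with a median of 0.55, and with the chromosome shift subtracted the difference was -1.81 (95% interval -2.32 to -1.29, adjusted p = 0.000743). The 250 bases before the RefSeq start of *CDKN1A* (chr6:36678464-36678713 on GRCh38.p14, plus strand) are given because no other member moved as far, with 4 GC boxes in capitals, the last of which overlap.
CDKN1A: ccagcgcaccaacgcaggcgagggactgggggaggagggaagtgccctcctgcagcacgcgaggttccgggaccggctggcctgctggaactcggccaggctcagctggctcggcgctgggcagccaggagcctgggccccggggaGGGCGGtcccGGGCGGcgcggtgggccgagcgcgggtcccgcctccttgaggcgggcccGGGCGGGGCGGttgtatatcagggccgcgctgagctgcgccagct

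*CDKN1B* (chr12:12838432-12875303, plus strand), the p27 gene, was lower in every shPAX2 library but missed the threshold. Its values were 33.7, 35.5 and 43.0 TPM in shEV and 32.5, 31.8 and 29.9 TPM in shPAX2, so shEV replicate 1 was the closest to shPAX2. The difference was -0.24 (SE 0.09, adjusted p = 0.0589), with -0.31 (adjusted p = 0.0304) when shEV replicate 1 was left out and -0.14 (adjusted p = 0.146) when shEV replicate 3 was. After median-of-ratios scaling it was -0.14 (adjusted p = 0.244). *CDKN1A* and *CDKN1B* together had 43.9 TPM ± 3.71 in shEV and 33.4 TPM ± 1.24 in shPAX2. Within that sum, *CDKN1A* was 22%, 12.7% and 10.1% in shEV and 5.63%, 5.87% and 6.55% in shPAX2, with no overlap. The third CIP/KIP gene, *CDKN1C*, was near 1 TPM in shEV (1.35, 1.23 and 1.09) and lower in shPAX2 (0.711, 0.346 and 0.478, difference -0.78, adjusted p = 0.00884). It rested on 54 reads in all of shEV and 39 in all of shPAX2. In 1 random draw that thinned all libraries to the smallest, it no longer passed (-0.59, adjusted p = 0.101).

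*CDKN2A* (chr9:21967751-21995300, minus strand) had 39.1, 44.4 and 44.4 TPM in shEV and 43.5, 44.7 and 51.7 TPM in shPAX2. The groups overlapped, and the difference was 0.13 (SE 0.08, 95% interval -0.06 to 0.31, adjusted p = 0.246). It became 0.24 (adjusted p = 0.0475) with the chromosome shift subtracted, and 0.23 (adjusted p = 0.0535) by median-of-ratios scaling. It was 0.07 (adjusted p = 0.575) without shEV replicate 1 and 0.05 (adjusted p = 0.649) without shPAX2 replicate 3. This single value mixes transcripts of unlike function: the locus encodes both p16, the *CDK4* and *CDK6* inhibitor, and p14ARF from different first exons. The sequences before both RefSeq starts are shown because the table cannot assign reads to either (chr9:21974858-21975107 and chr9:21995325-21995574 on GRCh38.p14, minus strand). Capitals mark the 1 GC box of the downstream start.
CDKN2A, downstream start: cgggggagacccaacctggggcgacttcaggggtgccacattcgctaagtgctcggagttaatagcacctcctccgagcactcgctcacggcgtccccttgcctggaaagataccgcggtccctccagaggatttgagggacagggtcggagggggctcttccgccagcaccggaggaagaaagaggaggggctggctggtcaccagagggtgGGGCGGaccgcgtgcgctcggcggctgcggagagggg
CDKN2A, upstream start: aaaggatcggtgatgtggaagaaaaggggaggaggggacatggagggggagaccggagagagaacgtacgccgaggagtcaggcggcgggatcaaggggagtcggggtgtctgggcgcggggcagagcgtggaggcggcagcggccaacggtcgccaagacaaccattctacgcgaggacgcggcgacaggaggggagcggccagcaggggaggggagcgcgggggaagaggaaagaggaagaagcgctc
*CDKN2B*, the neighbouring INK4 gene (p15), was higher in shPAX2 at a much lower level, with 2.62, 2.24 and 2.81 TPM in shEV and 4.10, 4.73 and 5.40 TPM in shPAX2 (0.78, SE 0.13, adjusted p = 0.00182). The ratio of *CDKN2A* to *CDKN2B* was 14.9, 19.8 and 15.8 in shEV and 10.6, 9.45 and 9.57 in shPAX2. *CDKN2C* and *CDKN2D*, the other INK4 genes, had differences of -0.08 (adjusted p = 0.319) and 0.22 (adjusted p = 0.0710).

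*RB1* (chr13:48877880-49173572, plus strand), which encodes the protein that the D-cyclin kinases inactivate, fell in shPAX2 with the smallest adjusted p of the 8 genes. It had 64.0, 60.8 and 69.7 TPM in shEV and 43.9, 39.7 and 40.5 TPM in shPAX2. The groups were far apart, with a difference of -0.64 (SE 0.07, adjusted p = 0.000161), and the mean in shPAX2 was 63.8% of that in shEV. Chromosome 13 had a median of -0.16, 18 of its 212 tested genes (8.49%) were lower than *RB1*, and with that shift subtracted the difference was -0.48 (adjusted p = 0.000616). Its relatives *RBL1* (-0.18, adjusted p = 0.0308) and *RBL2* (-0.03, adjusted p = 0.780) had smaller differences. The share of *RB1* went from 45.6%, 46.0% and 49.2% of the summed pocket protein TPM in shEV to 38.1%, 37.5% and 37.6% in shPAX2. *LPAR6* and *RCBTB2* overlap *RB1* on the opposite strand, as *GPR19* overlaps *CDKN1B* and *CDKN2B-AS1* overlaps *CDKN2A*.

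**Figure D3:**
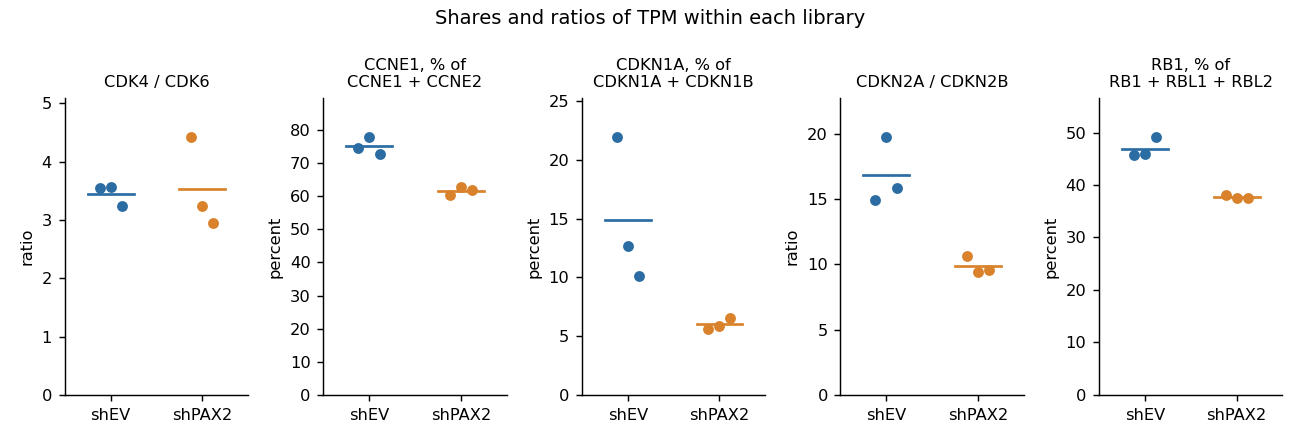
Ratios and shares of TPM within each library for shEV (blue) and shPAX2 (orange), with points for libraries and lines for group means, all axes starting at 0. The groups do not overlap for CCNE1 among E-type cyclins, CDKN1A among CDKN1A and CDKN1B, CDKN2A over CDKN2B and RB1 among pocket proteins, and they overlap for CDK4 over CDK6.

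**Figure D4:**
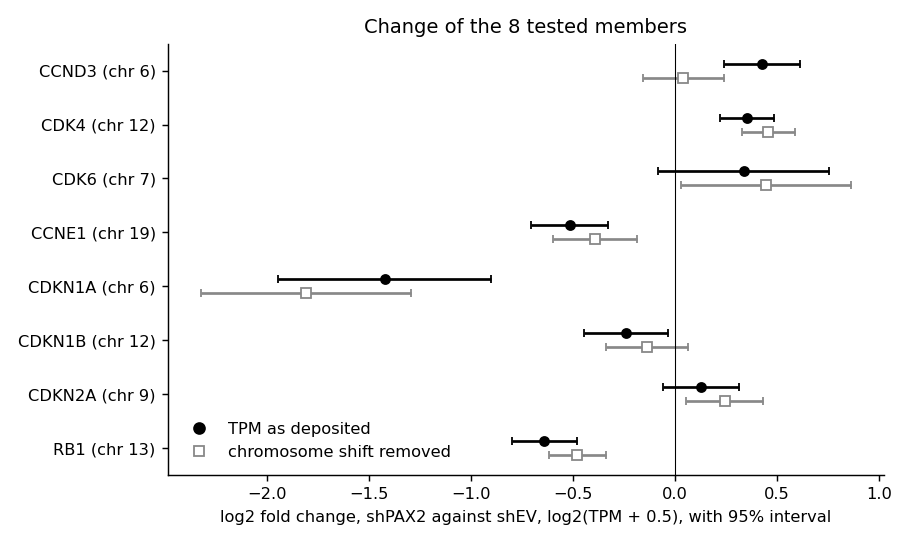
Log2 fold change of shPAX2 over shEV with its 95% interval for the 8 tested genes, from TPM as deposited (black circles) and with the median shift of each chromosome subtracted (open squares). CCND3 goes from 0.43 to 0.04 and CDKN1A from -1.42 to -1.81. CDK4 stays above 0 and CCNE1 and RB1 below 0 by both.

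The genes that work around these 10 were read from lists of the pathway, chosen with earlier results of these data known. Counts from these lists beside the shares of all genes are therefore descriptive. Of 12 other tested cyclins, CDKs and activators of the G1/S step, 4 rose and none fell: *CCNE2* (0.38), the phosphatase *CDC25A* (0.33), the kinase chaperone subunit *CDC37* (0.25) and the CDK subunit *CKS1B* (0.41). Their median was 0.16, beside -0.10 for all genes, of which 12.2% rose and 30.5% fell. *CDC25A* no longer passed without shEV replicate 2 or shPAX2 replicate 2 (adjusted p = 0.0549 and 0.0558), and in the latter fit 2 genes of the list rose. Without shEV replicate 2, 3 rose and 1 fell. *CCNA2*, the S-phase cyclin, had a difference of 0.17 (adjusted p = 0.0986). *CCNA2* passed in 5 of 19 alternative fits, among them median-of-ratios scaling (0.27, adjusted p = 0.0144) and that without shPAX2 replicate 1 (0.24, adjusted p = 0.0148).

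Downstream of *RB1*, the E2F and DP factors moved in both directions. Of the 12 tested pocket proteins, E2F and DP genes, 3 rose, 5 fell and 4 did not pass, beside 12.2% and 30.5% of all genes. After median-of-ratios scaling the balance turned, with 5 higher and 3 lower. The activators *E2F2* (42.7, 41.4 and 38.7 TPM in shEV, then 59.3, 65.4 and 64.7 TPM in shPAX2, difference 0.62, adjusted p = 0.000126) and *E2F3* (0.51, adjusted p = 0.000942) were higher, as was the repressor *E2F6* (0.24, adjusted p = 0.0239). *E2F6* no longer passed in the 1 random draw that thinned reads to the smallest library (0.16, adjusted p = 0.176). Nor did *E2F6* pass when shEV replicate 2 (0.0771) or shPAX2 replicate 2 (0.0912) was left out. *E2F3* lies on chromosome 6, and with the chromosome shift subtracted its difference was 0.13 (adjusted p = 0.176). *E2F1* had 62.7, 58.8 and 56.7 TPM in shEV and 65.3, 66.9 and 61.5 TPM in shPAX2 (0.12, adjusted p = 0.152). *E2F1* was called higher in 3 of 19 alternative fits, among them median-of-ratios scaling (0.23, adjusted p = 0.0172). *TFDP1*, the main dimer partner of the E2F proteins, fell from 86.4, 84.3 and 89.4 TPM to 42.4, 52.9 and 53.4 TPM (-0.81, SE 0.09, adjusted p = 0.000170), and *TFDP2* (-0.46, adjusted p = 0.00127) and the atypical repressor *E2F7* (-0.41, adjusted p = 0.00250) also fell. *TFDP1* shares chromosome 13 with *RB1*, and with the chromosome shift subtracted the *TFDP1* difference was -0.65 (adjusted p = 0.000781).

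Genes that E2F factors drive at the G1/S boundary were higher in part. Of 15 tested, 9 rose, none fell and 6 did not pass, with a median of 0.26, beside 12.2% higher and 30.5% lower of all genes. Thymidine kinase *TK1* had 88.3, 71.9 and 65.7 TPM in shEV and 96.6, 109 and 109 TPM in shPAX2 (0.48, adjusted p = 0.00778). *PCNA*, the sliding clamp of DNA replication, differed by 0.43 (adjusted p = 0.00623) and *RRM2*, a ribonucleotide reductase subunit, by 0.37 (adjusted p = 0.00636). The number that rose was 7 without shEV replicate 3 or without shPAX2 replicate 2, and 13 after median-of-ratios scaling, and none fell in any of these fits. Of 10 tested genes of mitosis, *AURKB* rose (0.29, adjusted p = 0.00975), *CENPF* fell (-0.22, adjusted p = 0.0152) and 8 did not pass, beside the same 12.2% and 30.5% of all genes. *MKI67* had a difference of -0.20 (adjusted p = 0.196), which was -0.31 (adjusted p = 0.0356) without shEV replicate 3, and *CCNB1* one of 0.07 (adjusted p = 0.534). After median-of-ratios scaling, 2 mitotic genes were higher and none lower, *CENPF* no longer passing (-0.11, adjusted p = 0.127), nor did it pass without shEV replicate 3 (0.0502). Of the 8 genes of the MuvB core and its partners, which repress or activate cell cycle genes, *MYBL2* rose (0.31, adjusted p = 0.00263) and *LIN54* (-0.40), *LIN37* (-0.24) and *RBBP4* (-0.22) fell. These counts, 1 higher and 3 lower of 8, are near the shares of all genes (12.2% higher and 30.5% lower). *LIN37* and *RBBP4* no longer passed after median-of-ratios scaling (adjusted p = 0.122 and 0.197). Both were also lost when shEV replicate 3 (0.0533 and 0.0702) or shPAX2 replicate 2 (0.0859 and 0.0818) was left out, *LIN37* without shEV replicate 1 (0.0524), and *RBBP4* without shEV replicate 2 (0.0767) or shPAX2 replicate 3 (0.0877).

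Ubiquitin ligases set the lifetime of the G1 proteins, which transcript levels do not show. *SKP2*, the receptor that marks p27 for destruction, had 156, 149 and 156 TPM in shEV and 172, 183 and 177 TPM in shPAX2 (0.21, SE 0.05, adjusted p = 0.0147). It was the only one of 15 tested that rose, while 8 fell, beside 12.2% higher and 30.5% lower of all genes. Among those that fell were *FBXW7* (-0.40, adjusted p = 0.00119), the receptor for cyclin E, *FBXO4* (-0.45, adjusted p = 0.00187), reported for cyclin D1, and *RNF123* (-0.28, adjusted p = 0.0172), which acts on p27. The count depended on the scale: after median-of-ratios scaling 3 rose and 3 fell, and with the chromosome shift subtracted also 3 and 3. After quantile normalization 1 rose and 3 fell. With each library centred on chromosome medians of levels, the balance turned, with 5 higher and 1 lower. *RNF123* no longer passed after median-of-ratios scaling (-0.18, adjusted p = 0.0914), after quantile normalization (-0.10, 0.302), or when shEV replicate 2 (0.0592) or shPAX2 replicate 3 (0.0636) was left out. *SKP2* missed the threshold without shEV replicate 2 (adjusted p = 0.0617) or without shPAX2 replicate 2 (0.0760).

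**Figure D5:**
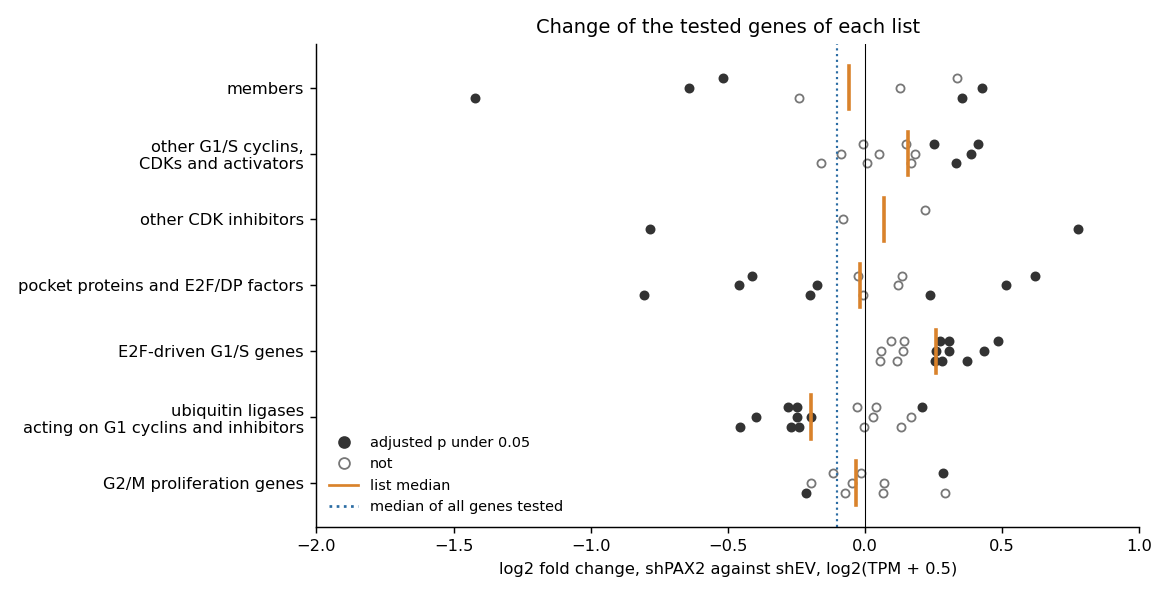
Log2 fold change of shPAX2 over shEV for each tested gene (points) of the 10 G1 regulators and of 6 lists around them. Filled points passed an adjusted p of 0.05, orange bars are list medians and the dotted line is the median of all genes tested (-0.10). The E2F-driven genes lie above 0, with a median of 0.26.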

How the data were processed

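RNA-seq was performed on total RNA of 6 AN3CA libraries, 3 shEV and 3 shPAX2, with a stranded kit per the labels. The authors deposited TPM values for 17471 genes. The submitters' processing notes name bcl2fastq, STAR, Subread, featureCounts and edgeR with hg19 (GRCh37). Which of them counted the reads, and with which strand setting, is not given in the sources used here. Within each gene the values were ratios of whole numbers (100% of genes, tolerance 1e-11), so whole reads per gene were recovered and gave the depth. *RPPH1* and *RMRP* took 12.7% to 15.6% of each total, and TPM is a share of that total.

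Genes that reached 0.5 TPM in 3 or more libraries were tested with limma 3.58.1 in R 4.3.3 (trend and robust) on log2(TPM + 0.5), two-sided, 3 against 3, without covariates, with Benjamini-Hochberg adjustment. The pseudocount understates changes of low genes. The fit was tested on simulated data. Positions are from GENCODE 44 on GRCh37 (94.8% of symbols matched) and upstream sequences from RefSeq on GRCh38.p14. Read ratios have exact Clopper-Pearson intervals. Genes outside the 10 were named by rule: *PAX2*, *CDK2*, *CCNA2*, *CCNE2*, *E2F1*, *SKP2*, *MKI67* and *CCNB1*, and per list the 3 highest and 3 lowest past the threshold. *RBL1*, *RBL2*, *CDKN2C*, *CDKN2D*, *CDC37* and the markers were added as context. A further list, and the genes named with it, are not reported here. The members and lists were chosen with earlier results of these data known. Alternatives changed the pseudocount, filter, scaling, depth, libraries, test, replicate block and chromosome shift. Subtracting each chromosome's median deviation from the gene means was added after the data had been seen.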

Additional observations from a re-analysis of the deposited data

How the results depend on the processing

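No member changed direction under any of 14 to 19 alternatives. *CCNE1*, *CDK4*, *CDKN1A* and *RB1* stayed past the threshold in all of theirs, with differences from -0.59 to -0.34, 0.30 to 0.48, -1.81 to -1.13 and -0.69 to -0.46. Without chromosome 6, which holds *CCND3* and *CDKN1A*, 3 of 6 tested members were called and 0 at 2-fold, beside 5122 genes in all (570 at 2-fold). With a filter of 5 TPM, *CDKN1A* was not tested, so 0 members were called at 2-fold, and 303 genes in all. Leaving out 1 library at a time gave 5 to 6 members (1 at 2-fold in each fit) and 3842 to 5658 genes in all (484 to 610 at 2-fold). *CCND3* was also lost when each library was centred on chromosome medians of levels (0.09, adjusted p = 0.469), where *CDKN2A* passed (0.30, adjusted p = 0.0360). *CDKN1B* passed with voom on recovered reads (adjusted p = 0.0368) and a filter of 5 TPM (0.0483). Of the other named genes, *LIN54* and *FBXW7* were lost with chromosome medians of levels alone (adjusted p = 0.208 and 0.178), while *CCNB1* passed with the chromosome shift subtracted (0.24, 0.0426). Replicate numbers did not pair the libraries (correlations of deviations -0.05, 0.08 and 0.00). With the replicate block, 5 members (1 at 2-fold) and 5112 genes (588 at 2-fold) were called, *CCND1* had an adjusted p of 0.0812, and *E2F6* did not pass either. The causes were not tested. Depth limits *CCND1*, *CCND2* and *CDKN1C*, and no result shows protein level or activity.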
